A study of Mus musculus with 18 samples.

Results

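Expression of Nfe2l2, which encodes the transcription factor NRF2, of Keap1, which encodes its inhibitor, and of 8 antioxidant genes known as NRF2 targets (Nqo1, Hmox1, Gclc, Gclm, Slc7a11, Txnrd1, Srxn1 and Prdx1) was compared between mice with wild-type (WT) PPARg and PPARg T166A mutant mice. These 10 genes were chosen by symbol. All 10 were found in both count tables, among 26165 genes in bone marrow-derived macrophages (BMDM) and 26149 in skin, and all 10 passed the filter on low counts, which left 13139 and 15473 genes for testing. PPARg is a nuclear receptor that controls lipid genes in macrophages and adipocytes, and the title names T166 as a phosphorylation site. BMDM (n = 3 libraries per genotype) were grown from the femurs and tibiae of C57BL/6J mice or PPARg T166A mice for 7 days with 50 ng/ml M-CSF, the growth factor that drives macrophage differentiation. They came in batches B1 (replicates 1 and 2) and B2 (replicate 3). Skin libraries (n = 6 per genotype) came from dorsal skin at 6 days after injury, digested with enzymes and enriched on anti-F4/80 beads, so the fraction may hold other cells beside macrophages. The sources used here give no age, sex or further allele, and the mutation is described for the mouse, not for 1 cell type. The labels do not say that replicates were separate animals or cultures, so p-values measure the spread between these libraries, which may be technical.

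NRF2 is made continuously and, in unstressed cells, is bound by KEAP1, which presents it to a CUL3 ubiquitin ligase for degradation. Electrophiles and oxidants modify cysteines of KEAP1, NRF2 then escapes degradation, pairs with a small MAF protein (MAFF, MAFG or MAFK) and binds antioxidant response elements, where the repressor BACH1 can occupy the same sites. Most of this control acts on the NRF2 protein, which RNA counts do not measure. In macrophages the targets serve glutathione synthesis, thiol repair and the breakdown of haem taken up with red blood cells.

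The core of the antioxidant response element, TGACNNNGC (N is any base), was searched on both strands of the RefSeq promoter windows (GRCm38.p6, 250 bases before to 50 after each annotated start). Of the 10 genes, 8 had a window, with 3 starts for Txnrd1 and 1 for each other gene. The core was present in 5 of the 10 windows and at 5 of the 8 genes, against 12.4% of all 32851 windows and 14.0% of 27025 genes. The exact binomial interval on the share of these 10 windows ran from 18.7 to 81.3% and covers counting error only. The 5 matches are printed because they are the sequences of the motif that defines the target family. Each is given 5′ to 3′ on the minus strand, with the core in capitals. Distances run from the annotated start of the window. For Gclm and for the Txnrd1 start shown, that start lies inside the gene interval given below.
Nfe2l2 (chr2:75704875-75704913, core 240 bases before the start): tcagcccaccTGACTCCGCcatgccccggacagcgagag
Gclm (chr3:122245403-122245451, core 134 bases before the start): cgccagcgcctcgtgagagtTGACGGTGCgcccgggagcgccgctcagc
Prdx1 (chr4:116685446-116685494, core 133 bases before the start): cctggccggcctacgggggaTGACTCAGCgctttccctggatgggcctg
Txnrd1 (chr10:82859094-82859142, core 92 bases before 1 of its 3 starts): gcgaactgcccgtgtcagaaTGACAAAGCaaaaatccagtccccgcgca
Srxn1 (chr2:152105542-152105570, core 28 bases after the start): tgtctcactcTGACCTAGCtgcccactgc

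The Prdx1 match also contains TGACTCA, the letters bound by AP-1, so this stretch is shared with another motif. In the windows of Nqo1, Slc7a11 and Keap1 these letters were not found, which says nothing of elements outside the windows. A match is a description of sequence and not evidence of binding.

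Total gene counts ran from 40072513 to 44152639 per BMDM library and from 29357354 to 38774475 per skin library. Macrophage genes were abundant in both sources: Lyz2, which encodes lysozyme, stood at 30106 ± 6671 CPM (counts scaled to library size, normalised by edgeR's TMM method; SD, n = 3) in WT BMDM and 5418 ± 480 (SD, n = 6) in WT skin. In WT skin 6 fibroblast markers summed to between 7048 and 10877 CPM, beside 9460 to 11946 for 6 macrophage markers. In T166A skin these sums were 5926 to 11003 and 8178 to 9057. The fibroblast sum was 4.23 to 43.8 in WT BMDM and 7.41 to 410 in T166A BMDM. Values of the skin fraction can therefore not be read as those of macrophages alone. In BMDM the adipocyte genes Adipoq, Plin1, Cidec, Lep and Retn were at 0. The mutation itself is a base change that counts per transcript do not show, so no library's genotype label was checked by its reads.

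In the wound fraction the RNA for the sensor pair moved in opposite directions: Nfe2l2 fell and Keap1 rose in T166A. Nfe2l2 (chr2:75675513-75704663, GRCm38) ran from 308 to 331 normalised CPM in WT libraries, with a median of 321, and from 239 to 285 in T166A libraries, with a median of 278. Every T166A library lay below every WT library. The means were 319.8 ± 7.43 and 271 ± 16.6 (SD, n = 6 each), which by edgeR's quasi-likelihood test was a log2 fold change of -0.24 (SE 0.05, adjusted p = 0.000715).

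Keap1 (chr9:21229730-21239332) ran from 22.4 to 27.1 normalised CPM in WT, with a median of 24.0, and from 26.0 to 35.3 in T166A, with a median of 32.4. The groups overlapped through 1 library, since T166A replicate 3, at 26.0, lay under WT replicate 1, at 27.1. Its log2 fold change was 0.40 (SE 0.07), or 1.32-fold, with an edgeR adjusted p of 0.000361.

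**Figure D1:**
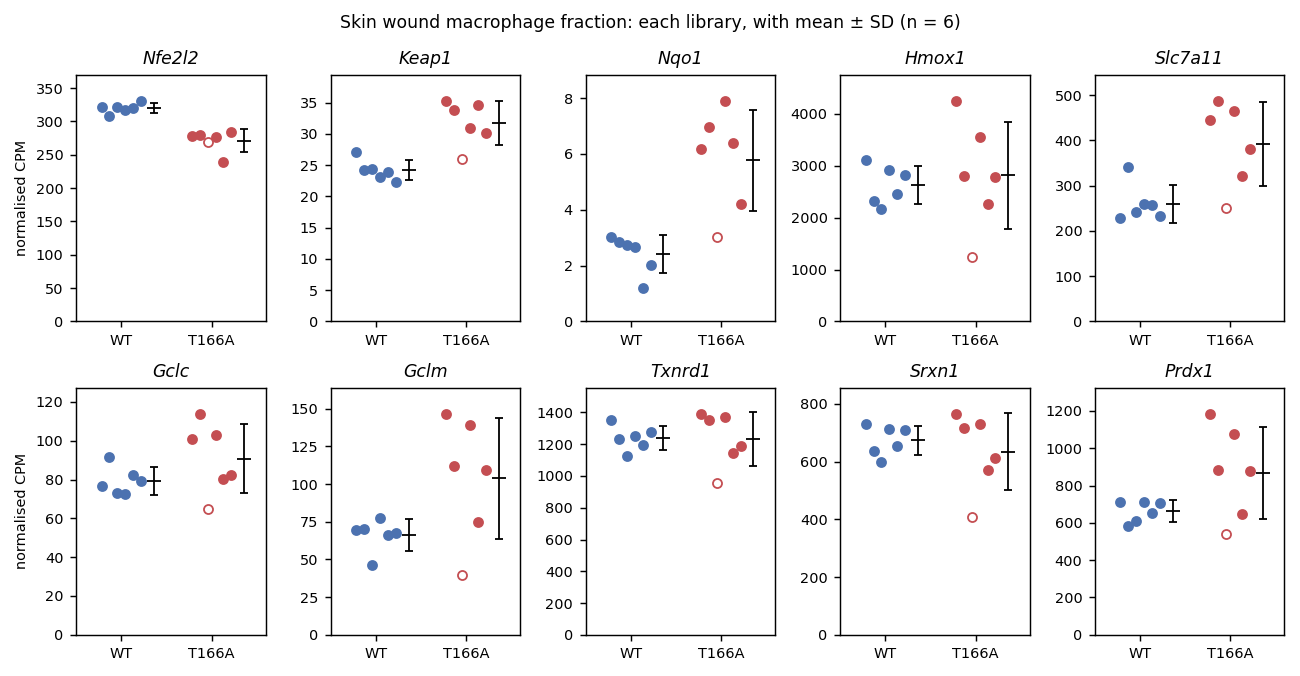
Normalised CPM (y axis, from 0) of the 10 genes in each skin library by genotype, with mean and SD (n = 6) beside the points; the open circle is T166A replicate 3. Nfe2l2 lies lower and Nqo1 higher in every T166A library, and the open circle is the lowest T166A point for 9 of the 10 genes.

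Of the 10 genes, 3 rose (Keap1, Nqo1 and Slc7a11) and 1 fell (Nfe2l2) in skin at an edgeR adjusted p under 0.05, where 25.9% of all genes tested were called (12.7% higher and 13.2% lower). Scaled by total counts in place of TMM, the split over all genes was 3357 higher and 1308 lower, against 1963 and 2048, and that of the 10 was again 3 and 1. The median log2 fold change of the 10 was 0.29, and that of all genes tested was 0.01. Among all genes tested, 12.1% had groups that did not overlap, and 2 of these 10 did. With 10 genes, these counts set nothing apart from the background.

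Nqo1 (chr8:107388225-107403205), the quinone reductase often used as a readout of NRF2, had the largest rise of the 10. Levels were low, from 1.18 to 3.01 normalised CPM in WT, with a median of 2.69, and from 3.03 to 7.89 in T166A, with a median of 6.28. The lowest T166A library, replicate 3, lay just above the highest WT library. These levels rested on 45 to 98 counts per WT library and 103 to 293 counts per T166A library. The means were 2.41 ± 0.689 and 5.77 ± 1.81 (SD, n = 6 each), a 2.41-fold difference (log2 fold change 1.27, SE 0.24, edgeR adjusted p = 0.000777).

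Slc7a11 (chr3:50364936-50499087) encodes the cystine-importing subunit of the cystine-glutamate exchanger, which supplies cysteine for glutathione, and is a target of both NRF2 and the amino acid stress factor ATF4. It ran from 228 to 342 normalised CPM in WT, with a median of 250.2, and from 249.9 to 487 in T166A, with a median of 413. The groups overlapped: T166A replicates 3 and 5 lay inside the WT range, and WT replicates 2, 4 and 5 lay inside the T166A range. The rise was 1.5-fold (log2 fold change 0.59, SE 0.17, edgeR adjusted p = 0.0264). Leaving out any 1 of WT replicates 1, 3, 4 and 6 or T166A replicates 1, 2 and 4 ended this call, with adjusted p values of 0.0502 to 0.0591.

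The enzymes of glutathione synthesis had higher T166A means that did not pass the test with all libraries. Gclm (chr3:122245487-122267215), the modifier subunit of glutamate-cysteine ligase, ran from 46.3 to 77.3 normalised CPM in WT, with a median of 68.7, and from 39.7 to 146 in T166A, with a median of 110.9. The T166A group held both the lowest and the highest library (log2 fold change 0.65, SE 0.28, edgeR adjusted p = 0.124). Gclc (chr9:77754535-77794489), the catalytic subunit of the same enzyme, had means of 79.3 ± 7.16 in WT and 90.8 ± 18 in T166A (SD, n = 6 each), with overlapping groups (log2 fold change 0.20, SE 0.12, edgeR adjusted p = 0.264).

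Of the 10 genes, those for thiol repair and haem breakdown (Prdx1, Txnrd1, Srxn1 and Hmox1) were not called. Prdx1 (chr4:116685599-116700000), a peroxiredoxin that reduces hydrogen peroxide, ran from 581 to 714 normalised CPM in WT, with a median of 679.8, and from 539 to 1182 in T166A, with a median of 881. Its log2 fold change was 0.39 (SE 0.18, edgeR adjusted p = 0.139). All T166A libraries but replicates 3 and 5 lay above every WT library.

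Txnrd1 (chr10:82833951-82897724), which encodes cytosolic thioredoxin reductase, had nearly equal means of 1240 ± 75.2 in WT and 1233 ± 170.5 in T166A (log2 fold change -0.01, SE 0.08, edgeR adjusted p = 0.956). Srxn1 (chr2:152105524-152111376), sulfiredoxin, which restores over-oxidised peroxiredoxins, had 674 ± 51.2 and 634 ± 133 (log2 fold change -0.09, SE 0.13, edgeR adjusted p = 0.681). For Hmox1 (chr8:75093618-75100593), haem oxygenase 1, the values were 2633 ± 371 and 2816 ± 1036 (log2 fold change 0.10, SE 0.25, edgeR adjusted p = 0.818). The T166A libraries of Hmox1 ran from 1246 in replicate 3 to 4251 in replicate 1, and the WT libraries from 2176 to 3108. Of the 8 targets, then, 2 were called, and the fold changes of Txnrd1, Srxn1 and Hmox1 were near 0.

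One library weighed on this pattern. T166A replicate 3 was the lowest of its group for 9 of the 10 genes, all but Nfe2l2, and its median log2 distance from the mean of the other T166A libraries over the 10 genes was -0.73. Without it, 6 of the 10 genes rose and 1 fell, where 1929 of all 15627 genes tested rose and 2001 fell. Gclm (log2 fold change 0.81, edgeR adjusted p = 0.00868), Prdx1 (0.49, adjusted p = 0.0208) and Gclc (0.28, adjusted p = 0.0239) joined the calls. The library was singled out by its values for these same 10 genes, so the added calls are a description and no support for a rise. WT replicate 3 was the lowest of its group for Hmox1, Gclm, Txnrd1 and Srxn1.

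Several cell type marker lists moved with genotype in the same libraries. Adipocyte markers summed to between 7.04 and 10.8 normalised CPM in WT libraries and to between 34.7 and 78.7 in T166A libraries, and 6 of the 7 genes rose. All 6 macrophage markers fell, with sums of 9460 to 11946 in WT and 8178 to 9057 in T166A. So did 4 of 7 neutrophil markers (257 to 305 and 156 to 252). In WT BMDM the neutrophil markers summed to between 162 and 244, with Csf3r at 124, so these sums cannot be read as neutrophils alone. All 5 skeletal muscle markers fell (48.0 to 71.3 and 21.4 to 30.9) and 3 of 5 endothelial markers rose (807 to 1096 and 1024 to 1462). Of the 6 fibroblast and the 6 keratinocyte markers 0 were called by edgeR, and at an unadjusted p under 0.05 they held 0 and 1 higher. Among 5 mast cell markers 1 rose and 3 fell, and among 5 dendritic and Langerhans cell markers 1 rose. The most abundant mast cell marker, Kit, had a higher mean in T166A, opposite to the 3 that fell. The most abundant markers in WT and T166A skin were Pck1 of adipocytes (2.00 ± 0.425 and 20.04 ± 7.04 normalised CPM), Csf3r of neutrophils (202 ± 17.6 and 158 ± 26.9), Acta1 of muscle (39.9 ± 4.95 and 15.9 ± 2.78), Pecam1 of endothelium (379 ± 46.9 and 549 ± 75), Kit of mast cells (52.9 ± 4.45 and 86.6 ± 13.4) and Col3a1 of fibroblasts (3979 ± 613 and 3753 ± 752). Krt14, Il7r, Epcam and Hba-a1 led the keratinocyte, T and NK cell, dendritic and Langerhans cell, and erythroid lists. Their means were 70.4, 153, 25.0 and 87.1 in WT and 83.1, 153, 23.1 and 59.5 in T166A. Il7r also stood at 110 in WT BMDM, so its level cannot be read as T cells. In bulk libraries, fewer cells of a type and less RNA per cell cannot be told apart.

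T166A replicate 3 had the lowest fibroblast sum of all skin libraries, 5926, and the highest neutrophil sum of its genotype, 252. Its adipocyte sum, 77.8, was near the top of its group. The adipocyte sums of the genotypes did not overlap, so score and genotype can hardly be told apart in a joint fit. Neutrophil sums did not overlap either (257 to 305 in WT, 156 to 252 in T166A), so the same limit holds for that score. With the adipocyte score as a covariate, Slc7a11 passed with a log2 fold change of 2.06 (SE 0.44, adjusted p = 0.0363) against 0.59 without the score, while Nqo1 (log2 fold change 2.06, SE 0.87, adjusted p = 0.236), Keap1 (0.60, adjusted p = 0.274) and Nfe2l2 (-0.17, adjusted p = 0.718) did not pass, all by edgeR. With the neutrophil score, Keap1 and Nfe2l2 kept theirs (adjusted p = 0.039 and 0.0067), and Nqo1 (0.86, adjusted p = 0.0656) and Slc7a11 (0.52, adjusted p = 0.231) did not. With keratinocyte and fibroblast scores all 4 calls passed, and Gclm (0.85, adjusted p = 1.66e-11), Prdx1 (0.56, adjusted p = 2.4e-05), Gclc (0.20, adjusted p = 0.0193) and Hmox1 (0.32, adjusted p = 0.0296) joined them. In that fit 1830 of all 15473 genes tested rose and 1968 fell. Replicate 3 had the lowest fibroblast sum of each genotype (7048 in WT), and several of the 10 genes were lowest there too. The score and these libraries can therefore hardly be told apart. Which cells the RNA of the 10 genes came from was not tested.

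In BMDM the direction for most targets was downward, but no gene of the 10 passed the adjusted threshold. The edgeR test called 0 of the 10, where 0.0685% of all 13139 genes tested were called, and 5 of the 10 (Nqo1, Hmox1, Gclm, Txnrd1 and Prdx1) had an unadjusted p under 0.05, all lower in T166A, against 6.32% of all genes lower at that level. In all, 8 of the 10 log2 fold changes were negative, with a median of -0.32 (all genes tested, -0.02). DESeq2 called 1, Hmox1, where it called 1.26% of its genes lower, and limma-voom called 0. BMDM libraries also differed with transcript length, with a Spearman correlation across genes of -0.45 to 0.06 in WT libraries and -0.17 to 0.41 in T166A libraries. With that trend removed, 0 of the 10 were called and their median log2 fold change was -0.33, but Hmox1 moved from -0.41 to -0.26 and Gclm from -0.32 to -0.53.

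Nqo1 stood at 5.48, 7.04 and 8.31 normalised CPM in WT replicates 1 to 3 and at 4.46, 4.09 and 4.10 in T166A. All T166A libraries lay below all WT libraries, the opposite side from the wound fraction. The log2 fold change was -0.71 (SE 0.25, edgeR adjusted p = 0.308), with -0.55 in batch B1 and -1.02 between the single libraries of B2. Txnrd1 was the other gene whose groups did not overlap, at 177, 166.01 and 141 in WT and 138, 138 and 111 in T166A, where 6.97% of all genes tested had T166A below WT without overlap (log2 fold change -0.33, SE 0.11, edgeR adjusted p = 0.304). Its within-batch values were -0.32 in B1 and -0.35 in B2.

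Hmox1 stood at 623, 646 and 829.7 normalised CPM in WT and at 472, 478 and 631 in T166A. T166A was lower within each batch, by -0.42 on the log2 scale in B1 and -0.40 in B2, and the T166A library of B2 reached the level of the WT libraries of B1. The log2 fold change with batch in the model was -0.41 (SE 0.11, edgeR adjusted p = 0.226). By DESeq2 it was -0.41 (SE 0.11, adjusted p = 0.00922). Hmox1 therefore depended on the tool.

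Prdx1 was at 2501, 3867 and 3716 normalised CPM in WT and 1867, 2219 and 3591 in T166A (log2 fold change -0.44, SE 0.20, edgeR adjusted p = 0.388). Nearly all of that difference lay in B1, with -0.64, against -0.05 in B2. Gclm showed the same split, at 73.4, 84.4 and 110.5 in WT and 59.6, 60.1 and 99.3 in T166A (-0.40 in B1 and -0.15 in B2, edgeR adjusted p = 0.365 over both batches).

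**Figure D2:**
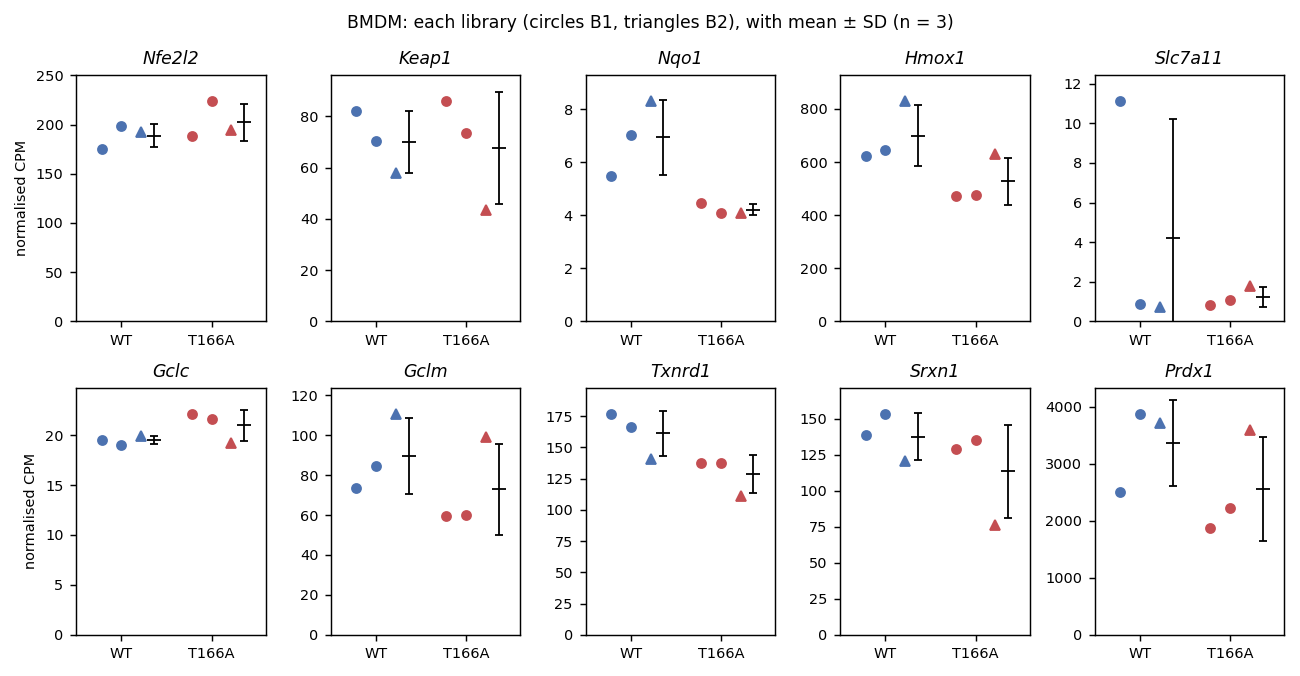
Normalised CPM (y axis, from 0) of the 10 genes in each BMDM library by genotype (circles, batch B1; triangles, batch B2), with mean and SD (n = 3); the SD bar of Slc7a11 in WT is cut at 0. Nqo1 and Txnrd1 are the genes whose T166A points all lie below the WT points, and WT replicate 1 stands above the other 5 libraries for Slc7a11.

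Srxn1 split the other way, at 139, 153 and 120.4 normalised CPM in WT and 129, 136 and 76.4 in T166A, with -0.15 in B1 and -0.66 in B2 (edgeR adjusted p = 0.4). Slc7a11 was near the bottom of the measurable range, at 11.1, 0.86 and 0.73 in WT and 0.83, 1.08 and 1.79 in T166A. WT replicate 1 alone was high, so the log2 fold change, -1.5 with all libraries (SE 1.30, edgeR adjusted p = 0.67), became 0.64 without it. T166A replicate 3 of BMDM had a fibroblast marker sum of 410.1 normalised CPM against 4.23 to 43.8 in the other libraries. The within-batch value of B1 is free of that library. It does include WT replicate 1, which had the sum of 43.8 and alone was high for Slc7a11. Whether the fibroblast markers and Slc7a11 go together there was not tested.

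The sensor pair and the catalytic glutathione subunit had log2 fold changes smaller than their SE in BMDM. Nfe2l2 was at 175, 198 and 193 normalised CPM in WT and 188, 224 and 194 in T166A (log2 fold change 0.10, SE 0.13, edgeR adjusted p = 0.774). Keap1 was at 82.0, 70.5 and 57.8 in WT and 86.0, 73.4 and 43.5 in T166A (log2 fold change -0.09, SE 0.15, edgeR adjusted p = 0.827). Gclc lay between 19.1 and 19.9 in WT and between 19.2 and 22.1 in T166A (log2 fold change 0.10, SE 0.15, edgeR adjusted p = 0.796). The log2 values in B1 and B2 were 0.18 and -0.05 for Gclc, 0.14 and 0.01 for Nfe2l2, and 0.06 and -0.41 for Keap1.

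Whether the genotype effect differed between sources was tested in 1 edgeR fit over all 18 libraries, as the skin log2 fold change minus that of BMDM. Of the 10 genes, 3 passed, where 14.3% of all 16586 genes tested did. Nqo1 had the firmest difference, 2.01 (SE 0.39, edgeR adjusted p = 0.00199), and its adjusted p stayed between 0.000671 and 0.00887 over the alternatives run. Marker scores, DESeq2 and limma-voom were not among the alternatives of this test. Keap1 (0.52, SE 0.14, edgeR adjusted p = 0.0194) and Nfe2l2 (-0.30, SE 0.10, edgeR adjusted p = 0.0483) passed with all libraries and the batch term. Both were lost when the sources were fitted apart (adjusted p = 0.141 and 0.202) or without the batch term (0.164 and 0.0945). Nfe2l2 was also lost with total-count scaling (adjusted p = 0.057) and in 15 of the 18 fits that left out 1 library (0.0531 to 0.164), and Keap1 in 3 of them, without WT replicate 3 or T166A replicate 2 or 3 of BMDM (0.0546 to 0.0728).

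For Slc7a11 the difference was 2.21 (SE 0.93, edgeR adjusted p = 0.127), and it was -0.06 without WT replicate 1 of BMDM. It passed without WT replicate 2 (2.74, adjusted p = 0.035), WT replicate 3 (3.31, adjusted p = 0.0244) or T166A replicate 3 (3.31, adjusted p = 0.0244) of BMDM. Gclm (0.999, SE 0.42, adjusted p = 0.128) and Prdx1 (0.87, SE 0.30, adjusted p = 0.065) did not pass by edgeR with all libraries and no pairing. With the replicate number as a block within each source, Gclm (0.90, adjusted p = 0.0438) and Txnrd1 (0.34, adjusted p = 0.0363) passed and Prdx1 did not (0.80, adjusted p = 0.0519). The BMDM batches set replicate 3 apart in both genotypes but do not pair replicates 1 and 2. Without T166A replicate 3 of skin Gclm and Prdx1 passed, with 1.17 (adjusted p = 0.00663) and 0.97 (adjusted p = 0.0179), as did Txnrd1 and Hmox1. Prdx1 also passed without WT replicate 1, WT replicate 3 or T166A replicate 3 of BMDM, or T166A replicate 5 of skin (adjusted p = 0.0382 to 0.0451). The remaining gaps, for Gclc (0.13) and Srxn1 (0.26), were small beside their errors.

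**Figure D3:**
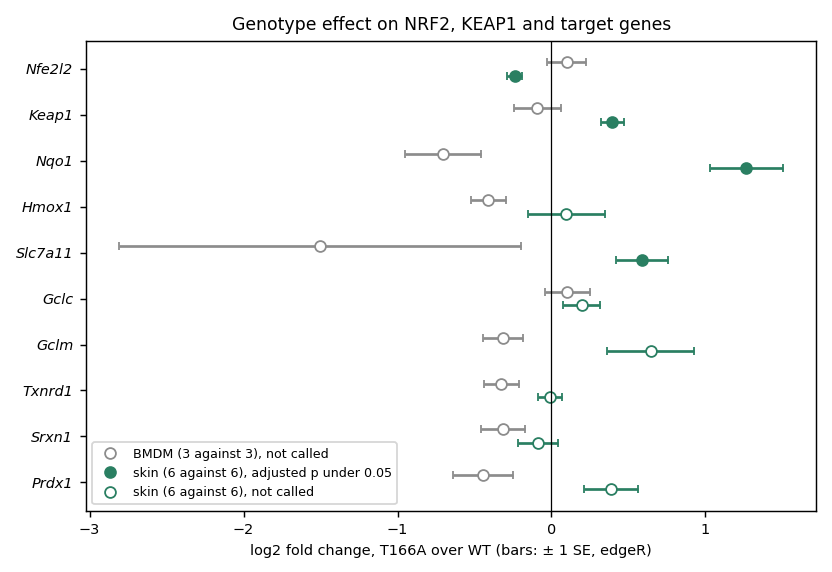
Log2 fold change of T166A over WT (x axis) for each of the 10 genes in BMDM (3 against 3) and skin (6 against 6), with bars of 1 SE either side; filled points passed an edgeR adjusted p under 0.05. Nqo1 lies at -0.71 in BMDM and 1.27 in skin, and the BMDM value of Slc7a11 has the widest bar.

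Levels were compared between genes as normalised CPM per kilobase of transcript in WT. The length was that of the longest RefSeq transcript of the gene, not of the transcript counted. For Txnrd1 it was 3622 bases, where the transcripts counted had 3531 in BMDM and 2297 in skin. In BMDM Prdx1 was the most abundant, at 1465 per kilobase, then Hmox1 at 446 and Nfe2l2 at 76.2. Srxn1 (48.9) and Txnrd1 (44.5) had overlapping ranges, as did Keap1 (22.1) and Gclm (16.0), and Gclc (5.70), Nqo1 (4.47) and Slc7a11 (0.46) followed in that order.

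In WT skin Hmox1 led at 1678 per kilobase, followed by Txnrd1 at 342. Prdx1 (289) and Srxn1 (240) had overlapping ranges and stood above Nfe2l2 (129). Slc7a11 (28.2) overlapped with Gclc (23.2), Gclm (11.8) overlapped with Keap1 (7.62), and Nqo1 was lowest at 1.55. In T166A skin the first place stayed with Hmox1 (1795) and the last with Nqo1 (3.72).

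**Figure D4:**
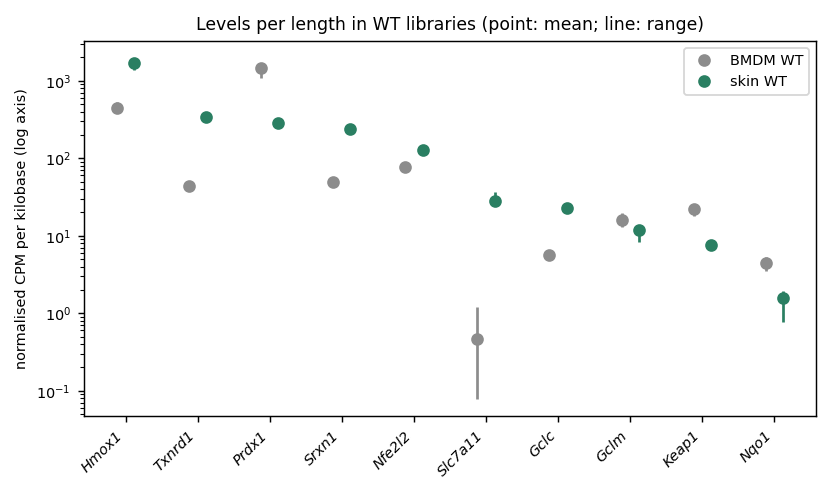
Normalised CPM per kilobase of transcript (y axis, log scale) of the 10 genes in WT libraries of BMDM and skin, as mean (point) and range (line). Hmox1 leads in skin and Prdx1 in BMDM, and Slc7a11 shows the widest gap between the sources.

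Between sources, WT Slc7a11 was 61.4-fold higher in skin than in BMDM, Txnrd1 7.69-fold, Srxn1 4.90-fold, Gclc 4.07-fold, Hmox1 3.76-fold and Nfe2l2 1.70-fold. The order was turned for Prdx1, which was 5.07-fold higher in BMDM, for Keap1 (2.90-fold) and for Nqo1 (2.88-fold), and the ranges of Gclm overlapped. The sources were prepared and counted apart, so these ratios are a description with no test.

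Around the 10 genes, 76 other genes of the pathway were followed in lists by role. In skin 19 of the 75 tested rose and 11 fell by edgeR, with a median log2 fold change of 0.02, where 12.7% of all genes tested rose, 13.2% fell and their median was 0.01. Scaled by total counts, 23 rose and 6 fell. These shares of all genes are the background for each list that follows, and no list was tested against them. The partners and repressor of NRF2 fell: of 8 regulators, 4 fell and 1 rose, with a median of -0.14. Maff, a small MAF partner, fell from 322 ± 24.4 to 208 ± 18.6 normalised CPM (SD, n = 6 each; log2 fold change -0.63, SE 0.06, edgeR adjusted p = 1.2e-07). Mafk fell by 0.36 on the log2 scale (adjusted p = 8.49e-05). Bach1, the repressor that competes at antioxidant response elements, fell from 779 ± 67.4 to 585 ± 54.5 (log2 fold change -0.41, SE 0.06, adjusted p = 4.15e-05). For these 3 genes every T166A library lay below every WT library. The other 2 calls, named after their values were seen, were Mafg (-0.23) and Nfe2l1 (0.25), while Cul3, the ligase scaffold, was not called (-0.01).

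Glutathione genes were mixed, with 3 of 14 tested higher and 2 lower. Slc3a2, the heavy chain that partners Slc7a11 in the exchanger, fell from 864 ± 55.2 to 698 ± 24.3 normalised CPM (log2 fold change -0.31, edgeR adjusted p = 8.32e-05), the opposite direction to Slc7a11. Abcc1, an exporter of glutathione conjugates, rose by 0.30 (adjusted p = 0.000288), and Gstt1, a glutathione transferase, by 0.43 (adjusted p = 0.0177).

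Of 6 NADPH-supplying genes, 3 rose and 1 fell. Me1, malic enzyme, rose from 13.0 ± 1.63 to 20.9 ± 1.16 normalised CPM (log2 fold change 0.69, SE 0.08, edgeR adjusted p = 2.47e-06), with no overlap between the groups. Tkt (0.18, adjusted p = 0.00946) and Taldo1 (0.29, adjusted p = 0.0215), of the pentose phosphate pathway, rose less. With the adipocyte score as a covariate the log2 fold change of Me1 was 0.65 (SE 0.33, adjusted p = 0.324).

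Among 15 detoxification genes 4 rose. Aldh3a1, an aldehyde dehydrogenase at under 1 normalised CPM in WT, had a log2 fold change of 1.35 (edgeR adjusted p = 0.00503), Aox1 one of 0.57 (adjusted p = 0.00912) and Akr1b8 one of 0.21 (adjusted p = 0.0118). Haem and iron genes held 2 falls among 8, Blvra, which encodes biliverdin reductase downstream of HMOX1 (43.5 ± 2.02 to 32.5 ± 2.47 normalised CPM, log2 fold change -0.42, adjusted p = 2.19e-05), and the ferritin gene Ftl1 (-0.24, adjusted p = 0.0101). Other thioredoxin and peroxide enzymes numbered 16, of which 3 rose and 1 fell. Sod3, Prdx6 and Txn1 rose by 0.30, 0.22 and 0.21 on the log2 scale (adjusted p = 0.00965, 0.0118 and 0.019).

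Because Slc7a11 also answers to ATF4, 8 ATF4 genes were set beside it, of which 5 rose and 1 fell (all genes tested, 12.7% and 13.2%), with a median of 0.47. Chac1, which degrades glutathione, rose from 6.78 ± 0.647 to 13.5 ± 1.75 normalised CPM (log2 fold change 0.99, SE 0.10, edgeR adjusted p = 2.31e-07). Asns, asparagine synthetase, rose by 0.56 (adjusted p = 3.57e-06) and Vldlr by 0.87 (adjusted p = 4.25e-05). The single fall, named after its values were seen, was Atf4 itself, from 356 to 295 (log2 fold change -0.27, adjusted p = 8.01e-05).

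**Figure D5:**
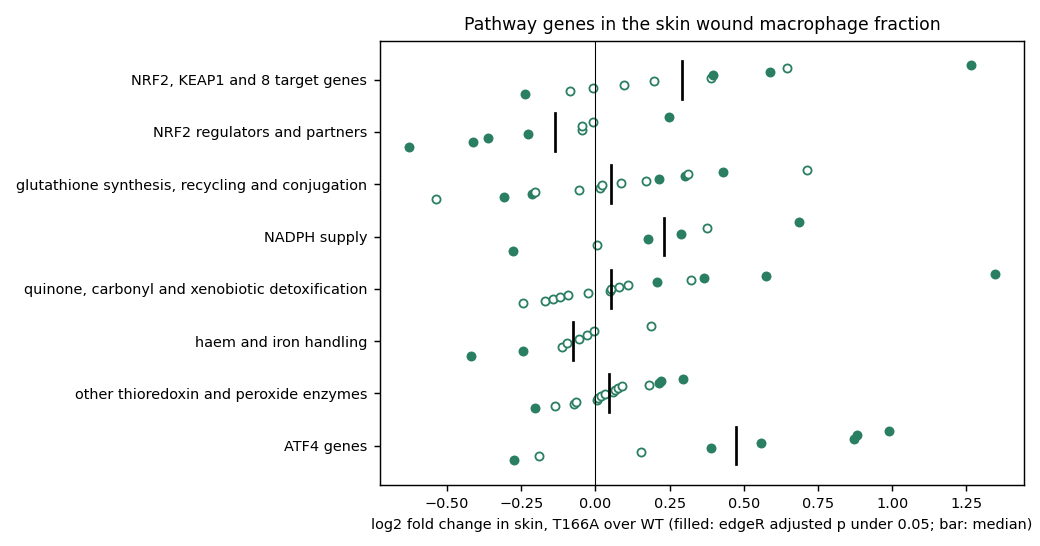
Log2 fold change of T166A over WT in skin (x axis) for the 10 genes and for each list of other pathway genes (1 point per gene; filled, edgeR adjusted p under 0.05; black bar, median of the list). The regulators have a median of -0.14 and the ATF4 genes one of 0.47, while the glutathione, detoxification and peroxide lists have medians near 0.05.

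In BMDM 0 of the 71 pathway genes tested were called by edgeR, 0 by limma-voom and 2 by DESeq2, both lower (Ptgr1 and Htatip2, named after their values were seen), where DESeq2 called 1.26% of its genes lower. At an unadjusted p under 0.05 in edgeR, 13 were lower and 3 higher, where 831 of all 13139 genes tested (6.32%) were lower. The log2 fold change was positive for 13 of the 71, with a median of -0.19, and for 6193 of all 13139 genes tested, with a median of -0.02.

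The genes whose level over all 18 libraries lay closest to that of Nfe2l2, by the root mean square of the difference in centred log2 CPM over 8561 genes compared, were Abi1 (0.0839), Atp6v1a (0.0866) and Golph3 (0.098). For Hmox1 they were Ppa1 (0.303), Gclc (0.334) and Sqstm1 (0.334). The profile of Hmox1 was thus less closely matched than that of Nfe2l2, and 1 of its 3 nearest genes was Gclc, another of the 10. The 18 points share source and library, so the likeness is a description.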

How the data were processed

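RNA sequencing was measured in 18 mouse libraries. The authors deposited 1 table per source, holding raw counts for RefSeq transcripts. Per the submitters' processing notes, FastQC 0.12.1, cutadapt 4.4, HISAT2 2.2.1 and featureCounts were used on mm10. How strand and multiply mapped reads were treated is not stated in the sources used here. The labels' extraction text speaks of adipocytes, although the samples are named as macrophages.

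Of 45895 (BMDM) and 45843 (skin) transcripts, 117 in each matched no gene and were left out (0.514% and 0.187% of counts). For each gene the transcript of highest summed CPM was used, since exons shared by isoforms were counted for each. Gclc, Txnrd1 and Keap1 had several nearly identical transcripts, and a second Nfe2l2 transcript held 5.43% of the counts of the chosen one in BMDM.

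Counts were tested with edgeR 4.0.16 in R 4.3.3, with batch in BMDM. The settings were TMM, filterByExpr at 10 counts and a total of 15, robust quasi-likelihood F test, Benjamini-Hochberg over all genes and a threshold of 0.05. The procedure was also run on simulated data with no batch effect, no length trend and less spread in BMDM than these libraries have. That run does not check the BMDM fit under those conditions. TMM factors were 0.946 to 1.001 in WT skin and 1.02 to 1.05 in T166A skin. Normalised CPM are CPM on library sizes multiplied by the TMM factor. A marker score is the mean log2 CPM (prior count 2) of a list. No pair of libraries was a duplicate. Same-numbered BMDM libraries of opposite genotype deviated together (correlations 0.115 to 0.2), and skin libraries did not (-0.0454 to 0.0901). Differently numbered BMDM libraries of opposite genotype in B1, which share the batch too, had correlations of -0.0170 and -0.0239. Why same-numbered BMDM libraries deviated together was not tested.

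The 10 genes and the lists were chosen with earlier results of these data known. The text names all 10, the called genes with the 3 lowest adjusted p of each pathway list in skin, the most abundant marker of each cell type list, and the most similar profiles to Nfe2l2 and Hmox1 among genes with at least 5 CPM in both sources. Promoter sequences came from RefSeq. Alternatives were RLE size factors, no filter or a stricter filter with a minimum count of 50, DESeq2 1.42.0, limma-voom (limma 3.58.1), a replicate block, summed transcripts, removal of the transcript length trend, batch choices, marker scores as covariates, and omission of single libraries. Scaling by total counts was chosen after seeing the data.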

Additional observations from a re-analysis of the deposited data

Results flagged for a closer look

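In 3 of the 20 sets of 6 skin libraries checked (10 genes, 2 genotypes), 1 library stood far from the others, where chance gives about 1 in 20. The gap to the nearest library, as a share of the group's range, was 0.643 for Gclm in WT replicate 3 (low), 0.727 for Slc7a11 in WT replicate 2 (high) and 0.673 for Nfe2l2 in T166A replicate 5 (low). The genotype effect differed between skin and BMDM, by the edgeR test of the difference itself, for Nqo1 (2.01 on the log2 scale), Keap1 (0.52) and Nfe2l2 (-0.30). Of these, Nqo1 passed in every alternative run of that test, which did not include marker scores. In skin alone the Nqo1 call was lost with the adipocyte or the neutrophil score.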

How the results depend on the processing

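In BMDM, 9 genes were called by edgeR, against 105 with no filter, 14 with the stricter filter, 391 by DESeq2, 177 by limma-voom, 0 with summed transcripts, 18 with the length trend removed, 23 with that and the replicate block, 0 without the batch term, 21 in B1 alone, 0 with the neutrophil score and 0 to 18 with single libraries left out. The replicate block alone gave 10. Of the 10 NRF2 pathway genes 0 were called there except by DESeq2 (1), and of the other pathway genes 2 by DESeq2. In skin the count of 4 among the 10 became 8 with keratinocyte and fibroblast scores, 1 with the adipocyte score, 2 with the neutrophil score and 3 to 7 with single libraries left out. The replicate block kept 3 higher and 1 lower in skin, where the labels do not pair the libraries. With the adipocyte score, calls fell from 4011 to 409 over all genes and from 30 to 6 over the other pathway genes. Total-count scaling moved the median of all skin genes from 0.01 to 0.10 on the log2 scale and left 3 of the 10 higher and 1 lower.

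For the difference between sources, 2367 genes became 965 without the batch term and 312 from separate fits, and the other pathway genes went from 18 to 7 and 3. The count of 3 among the 10 became 1 without the batch term, 1 from separate fits, 5 with the replicate block and 1 to 6 with single libraries left out. Direction turned for uncalled genes only, and Blvra. In BMDM these were Slc7a11 (0.2234 with the neutrophil score, -2.6448 to 0.6361 with single libraries left out, positive without WT replicate 1) and Keap1 (0.0632 in B1 alone, -0.2104 to 0.0648 with single libraries left out). In skin they were Hmox1 (-0.3672 with the neutrophil score, -0.0573 to 0.2503 with single libraries left out, negative without T166A replicate 1), Txnrd1 (0.0813 with total counts, 0.009 by limma-voom, 0.0802 with keratinocyte and fibroblast scores, 0.4677 with the adipocyte score, -0.0439 to 0.0568 with single libraries left out), Srxn1 (0.0025, 0.0273 and 0.5894 with total counts, keratinocyte and fibroblast scores and the adipocyte score, -0.1475 to 0.0126 with single libraries left out, positive without T166A replicate 3) and Blvra (0.0021 with the adipocyte score). The difference between sources for Slc7a11 was -0.0636 to 3.306 with single libraries left out, negative without WT replicate 1 of BMDM. The cause was not tested. With the motif searched before the start only, 4 of 10 windows matched.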
